A study of Rattus norvegicus with 15 samples.

Results

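The genes described here are the chains of the rat MHC class II molecules RT1-D and RT1-B and their partner Cd74, measured in mesenteric arteries. They were taken as every array probe set (a group of short probes for 1 transcript) whose only gene symbol in the platform annotation is Cd74, RT1-Da, RT1-Db1, RT1-Ba or RT1-Bb. These are 5 of the 4736 genes with such a probe set, and they hold 16 probe sets, of which 13 passed the filter on low signal and 3 did not. The genes were chosen from their signals in the 4 groups, so the levels by strain are given as a description, with no p-value for these genes. The array labels place the arteries in 4 groups: collateral arteries of the spontaneously hypertensive rat (SHR, 4 arrays), control arteries of SHR (4 arrays), collateral arteries of the Wistar Kyoto rat (WKY, 4 arrays) and control arteries of WKY (3 arrays). SHR is an inbred strain with high blood pressure, and WKY is the normotensive strain it is usually set against. Collateral arteries are those that carry extra flow after neighbouring arteries were occluded, and the series asks about their poorer growth in SHR. The labels give no age, no time after occlusion and no word on whether each array had an animal of its own, and the p-values therefore reflect spread among these arrays alone, which may be technical.

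MHC class II molecules are pairs of an alpha and a beta chain that hold peptides on the surface of antigen-presenting cells (macrophages, dendritic cells and B cells) for CD4 T cells to read. In the rat, RT1-Da and RT1-Db1 encode the alpha and beta chains of the RT1-D molecule, and RT1-Ba and RT1-Bb those of the RT1-B molecule. Cd74 is the invariant chain, which folds with new class II pairs and blocks their groove until the endosome, and it also serves at the cell surface as a receptor of the cytokine Mif. In mammals these genes are switched on together by the transactivator Ciita on promoters that carry an X box and a Y box, and interferon gamma is a known inducer. Arterial wall macrophages are a usual source of these transcripts in a whole artery. In bulk arteries, fewer cells of a type and less RNA per cell cannot be told apart.

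The promoter stretches are shown because they hold the shared letters of this gene family. The X box and Y box letters searched were GCAAC (start of the X box), ACNGATG (end of the X box, which can overlap the first motif) and ATTGG (core of the Y box), on both strands, and matches are in capitals. The sequences are RefSeq's on the rat build GRCr8, 5′ to 3′ in the direction of each gene. RT1-Da, RT1-Db1, RT1-Ba and RT1-Bb lie in this order on chromosome 20, and Cd74 lies on chromosome 18.
RT1-Da, chr20:4515290-4515384, plus strand: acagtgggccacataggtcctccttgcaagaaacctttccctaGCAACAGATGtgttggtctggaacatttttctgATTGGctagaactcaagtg
RT1-Db1, chr20:4560193-4560287, minus strand: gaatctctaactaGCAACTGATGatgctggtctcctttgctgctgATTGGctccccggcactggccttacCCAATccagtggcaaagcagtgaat
RT1-Ba, chr20:4576932-4577026, plus strand: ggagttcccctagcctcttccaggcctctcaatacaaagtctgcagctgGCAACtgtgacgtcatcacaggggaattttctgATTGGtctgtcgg
RT1-Bb, chr20:4604149-4604243, minus strand: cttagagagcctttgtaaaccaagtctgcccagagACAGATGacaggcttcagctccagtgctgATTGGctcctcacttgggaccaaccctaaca
Cd74, chr18:56526976-56527155, plus strand: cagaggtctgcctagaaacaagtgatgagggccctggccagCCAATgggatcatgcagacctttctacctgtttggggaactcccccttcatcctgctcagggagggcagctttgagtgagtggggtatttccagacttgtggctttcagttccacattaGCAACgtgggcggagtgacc
All 4 chain genes hold TGATTGG, a longer form of the Y box that 6.42% of 33469 rat promoters hold within 250 bases upstream of the start, and the Cd74 stretch holds CCAAT, its core read on the other strand, with the first base at position -189. The core alone is in 11385 of these promoters, GCAAC in 29.5% and ACNGATG in 8.55%. GCAAC stands 33, 32 and 33 bases before ATTGG in RT1-Da, RT1-Db1 and RT1-Ba, and 25 promoters (0.0747%) have it 32 or 33 bases before. The distances counted are those of these genes, which are among the 25, so the share is a description and no test. In Cd74, GCAAC begins at position -70, downstream of CCAAT, so it lacks the order and spacing of RT1-Da, RT1-Db1 and RT1-Ba. Whether it is part of an X box was not tested. A match of letters is a description and does not show that a factor was bound in these arteries.

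The signals are the authors' deposited values, scaled so that the mean after trimming 2% lay between 1001.06 and 1001.75 on every array. One array, SHR collateral 3, stood apart from the rest, with Spearman correlations of 0.496 to 0.657 with the other 14 arrays, which had 0.805 to 0.931 among themselves. The 20th percentile of its signals was 171, while the others had 43.2 to 83.1, and a signal below an array's own 20th percentile is called near background here. All 11 smooth muscle markers measured were at or above the 40th percentile on all 15 arrays. Signals of different probe sets have different scales, so levels are compared only between arrays for the same probe set. The RT1 genes differ in sequence between rat strains and have close copies, so a difference in transcript level and a difference in the match to the probes cannot be told apart between SHR and WKY.

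Cd74, the invariant chain, read higher in SHR than in WKY arteries of both vessel types on its brightest probe sets. On probe set X13044_g_at, the SHR collateral arrays had signals of 1367, 1389, 949.8 and 809, against 139, 168, 120.3 and 79.8 on the WKY collateral arrays. On the same probe set, the SHR control arrays had 3960.4, 563, 949 and 109, against 55.6, 72.8 and 75.8 on the WKY control arrays. Every SHR array lay above every WKY array of the same vessel type, SHR control 4 lay close to the WKY arrays, and WKY control 1 and 3 were near background. The difference, SHR minus WKY, was 3.17 ± 0.72 (SE) on the log2 scale in collateral arteries, or 8.99-fold, and 3.36 ± 0.78 in control arteries, or 10.3-fold. Because the WKY arrays lie low, the size depends on how low signals are treated: with 64 added to every signal before log2 the differences were 2.63 in both vessel types.

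The second bright Cd74 probe set, X13044_at, is named for the same sequence entry and had the same separation. Its signals were 1869, 1245, 2628 and 841 on SHR collateral arrays, against 346, 125, 25.5 and 355 on WKY collateral arrays. The SHR control arrays had 2875, 991, 1220.5 and 255, against 41.2, 254 and 46.5 on the WKY control arrays. The groups again did not overlap within a vessel type, although SHR control 4 (255) and WKY control 2 (254) all but touched, and 3 WKY arrays were near background. The log2 difference was 3.42 ± 0.83 in collateral arteries (10.7-fold) and 3.63 ± 0.90 in control arteries (12.3-fold).

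The remaining Cd74 probe sets were dim. X14254cds_g_at had 219, 207, 162 and 86.2 on SHR collateral arrays, against 22.0, 83.7, 106 and 36.5 on WKY collateral arrays. It had 1497, 85.7, 356 and 71.2 on SHR control arrays, against 88.1, 141 and 85.3 on WKY control arrays. The groups overlapped in both vessel types, and the log2 differences were 1.62 ± 0.84 in collateral and 1.23 ± 0.91 in control arteries. X14254cds_at did not pass the filter: it reached the 40th percentile on 1 of 15 arrays.

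RT1-Da, the alpha chain of RT1-D, had no array near background on either of its probe sets and was higher in SHR. Probe set M15562_at had 2726, 1349.7, 1371 and 753 on SHR collateral arrays, against 412, 395, 489 and 268 on WKY collateral arrays. It had 2557, 921, 814 and 277 on SHR control arrays, against 110.3, 112 and 122 on WKY control arrays. No SHR array overlapped a WKY array of the same vessel type, and the 3 WKY control arrays lay close together. The log2 difference was 1.87 ± 0.53 in collateral arteries (3.65-fold) and 2.90 ± 0.57 in control arteries (7.45-fold).

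On probe set M15562_g_at of RT1-Da, the SHR collateral arrays had 6804, 4325, 3186 and 4045, against 1061, 1231, 415 and 865 on the WKY collateral arrays. The SHR control arrays had 9118, 3834, 2679 and 659, against 666, 233 and 77.0 on the WKY control arrays. The collateral groups were apart, while among control arteries SHR control 4 fell just below WKY control 1. The log2 difference was 2.42 ± 0.66 in collateral arteries (5.33-fold) and 3.62 ± 0.72 in control arteries (12.3-fold). On all 4 of these Cd74 and RT1-Da probe sets the mean log2 signal was highest in SHR collateral arteries, then SHR control, WKY collateral and WKY control arteries. The neighbours in that order overlapped for SHR collateral and SHR control arteries on each of them, for SHR control and WKY collateral arteries also on each, and for WKY collateral and WKY control arteries on X13044_at and M15562_g_at but not on X13044_g_at and M15562_at.

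**Figure D1:**
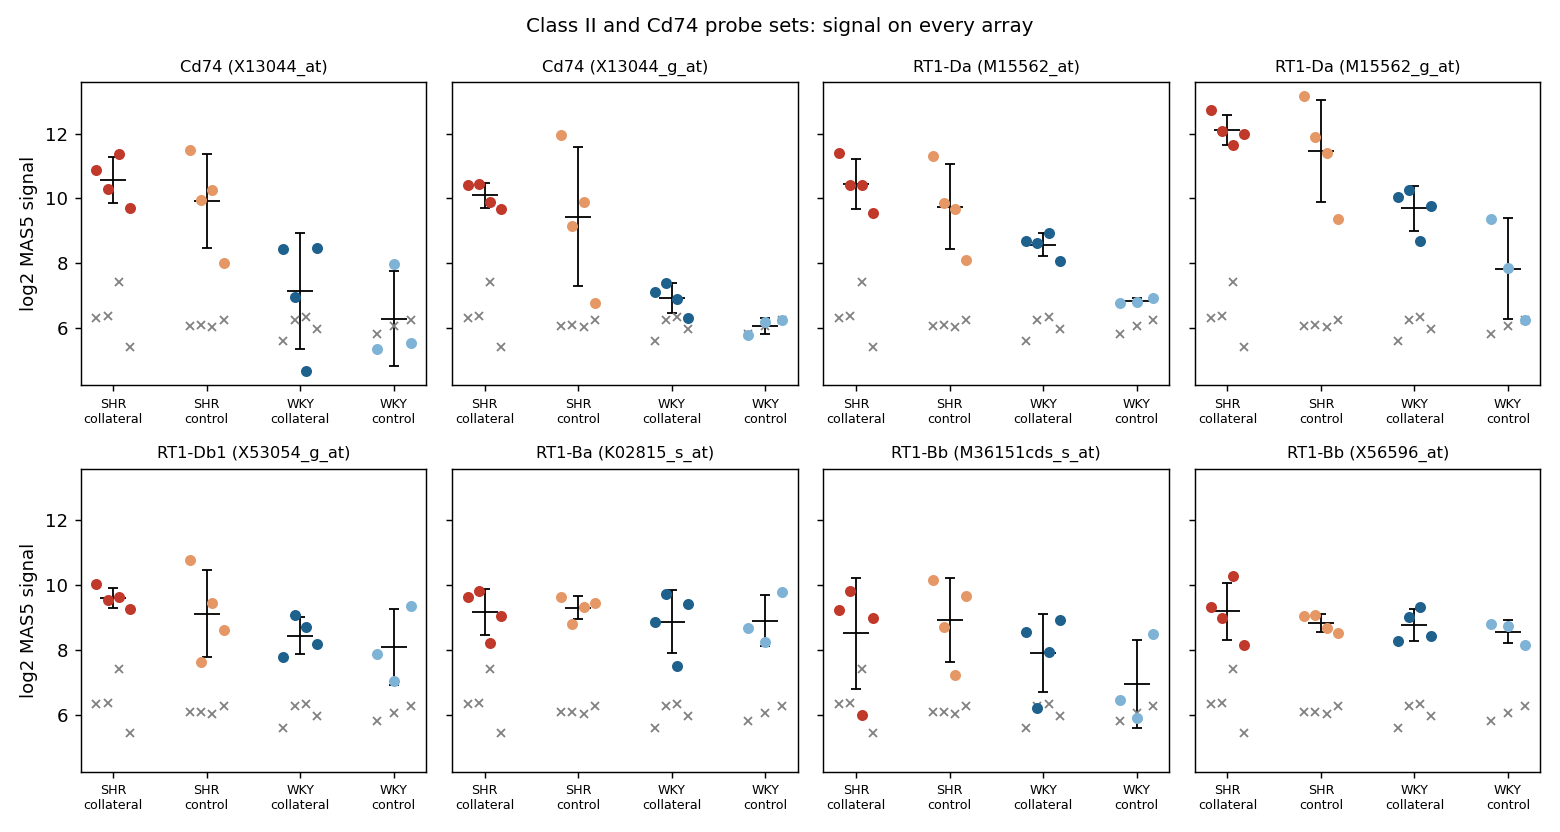
Log2 signal (vertical axis) of 8 probe sets of the class II genes and Cd74 on each array, by group, with the mean and SD of each group as bars and each array's own 20th percentile of signal as a grey cross. On the Cd74 probe sets X13044_at and X13044_g_at and the RT1-Da probe sets the SHR arrays lie above the WKY arrays, except that SHR control 4 lies close to or among them.

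RT1-Db1, the beta chain that pairs with RT1-Da, showed a smaller separation. Its probe set X53054_g_at had 1041, 738, 789 and 611 on SHR collateral arrays, against 221, 545, 415 and 289 on WKY collateral arrays, with no overlap. It had 1761, 198, 696 and 396 on SHR control arrays, against 237, 133 and 660.2 on WKY control arrays, where the groups overlapped. The log2 difference was 1.17 ± 0.58 in collateral and 1.02 ± 0.63 in control arteries. The dimmer X53054_at ranged over 25.8 to 548 on SHR collateral arrays, against 73.1 to 94.8 on WKY collateral arrays, and over 36.3 to 157 on SHR control arrays, against 40.1 to 239.7 on WKY control arrays. Its log2 differences were 0.88 ± 0.90 and -0.28 ± 0.98, both within 1 SE of 0.

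RT1-Ba, the alpha chain of RT1-B, did not separate the strains on any of its 3 probe sets with all arrays kept. The log2 differences, SHR minus WKY, in collateral and control arteries were 0.30 ± 0.49 and 0.39 ± 0.53 on K02815_s_at, -0.39 ± 0.48 and 0.10 ± 0.52 on M22366_at, and 0.45 ± 0.53 and 0.45 ± 0.57 on X07551cds_s_at. On K02815_s_at, for example, signals were 300.5 to 904 on SHR collateral arrays, against 183 to 851 on WKY collateral arrays, and 448 to 797 on SHR control arrays, against 307 to 886 on WKY control arrays. None of the 3 probe sets was near background on any array. On M22366_at the collateral groups overlapped only through SHR collateral 3 (1599), the array that stood apart. The other SHR collateral arrays had 346 to 430, against 542 to 851 on WKY collateral arrays. Without SHR collateral 3 the log2 difference of M22366_at in collateral arteries was -0.91, opposite in sign to those of Cd74 and RT1-Da. With SEs of this size, these values do not show that the strains are alike in RT1-Ba.

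RT1-Bb, the beta chain of RT1-B, differed between its probe sets. On X56596_at, which was above the 40th percentile on all 15 arrays, signals were 642, 504, 1257 and 285 on SHR collateral arrays, against 312, 518, 642 and 346 on WKY collateral arrays. On the control arrays they were 525, 545, 410.4 and 369.6 in SHR, against 444, 432 and 284 in WKY, and the log2 differences were 0.42 ± 0.43 in collateral and 0.27 ± 0.46 in control arteries. M36151cds_s_at had log2 differences of 0.61 ± 0.85 and 1.98 ± 0.92, with 149 to 1147 on SHR control arrays, against at most 358 on WKY control arrays, and the groups overlapped. U65217_i_at had differences of 2.05 ± 0.91 and 2.04 ± 0.98, but it was near background on 9 of 15 arrays, among them all 7 WKY arrays. The probe sets M15358cds_at and M36151cds_i_at were not tested, and the second was near background on all 15 arrays.

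**Figure D2:**
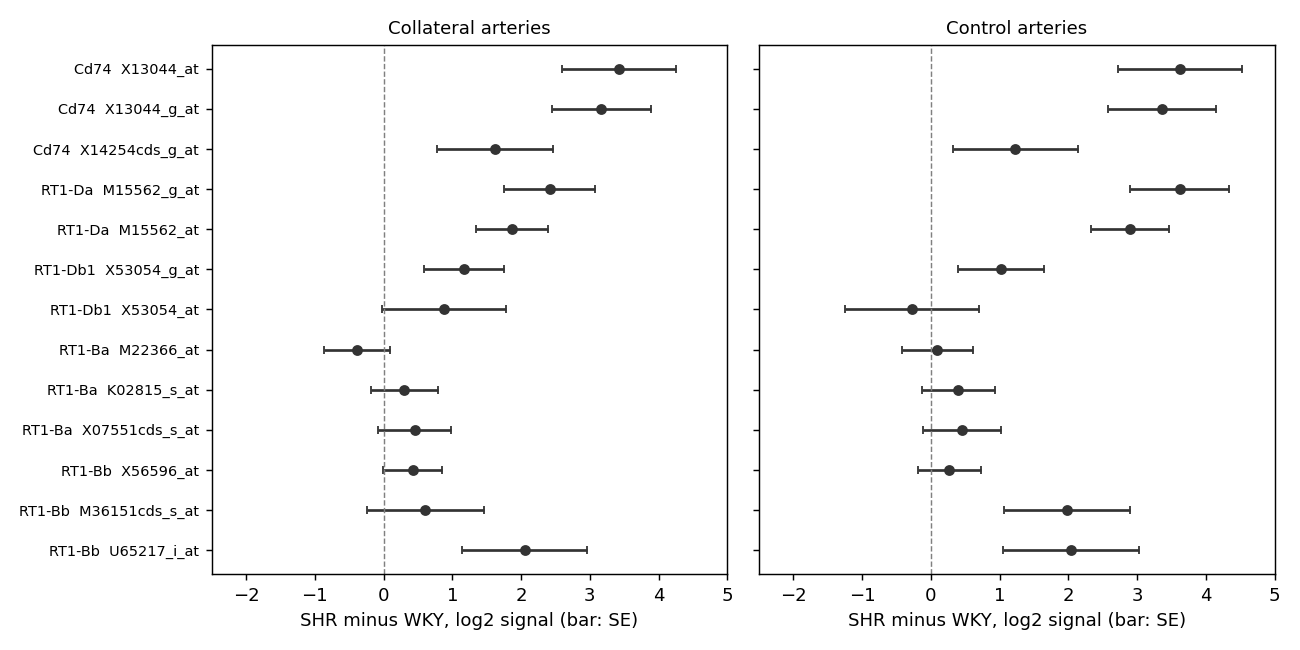
Difference of mean log2 signal, SHR minus WKY, for the 13 tested probe sets, in collateral arteries (left) and control arteries (right), with SE as bars. Cd74 X13044 and RT1-Da M15562 probe sets lie between 1.87 and 3.63, the dim RT1-Bb probe set U65217_i_at lies at 2.05 and 2.04, and the RT1-Ba probe sets lie near 0.

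Over the 13 tested probe sets, 12 had a difference above 0 in collateral arteries and 12 in control arteries. The median log2 difference was 1.17 in collateral arteries, against 0.12 for all 6512 tested probe sets, of which 58.9% were above 0, and 1.23 in control arteries, against 0.02 for all, of which 51.6% were above 0. All SHR arrays lay above all WKY arrays for 5 of the 13 in collateral arteries, where 2.07% of all tested probe sets did so, and for 3 of the 13 in control arteries, where 4.85% did. For 0 of the 13 did all SHR arrays lie below all WKY arrays, as 1.55% of all tested probe sets did in collateral and 3.72% in control arteries. Both vessel types showed it for 3 of the 13 (both X13044 probe sets of Cd74 and M15562_at of RT1-Da), among 27 of all tested probe sets (0.415%). Limma (moderated, Benjamini-Hochberg adjustment over all tested probe sets, threshold 0.05) called 0 of the 13 in either vessel type. The share called was 0% of all tested probe sets in collateral arteries, with 496 at an unadjusted p under 0.05, and 0.0307% in control arteries, with 421. The genes were chosen on these same signals, so the counts of calls are no test of them and nothing is read from them. X13044_g_at (on 7 arrays), U65217_i_at (on 4) and X14254cds_g_at (on 3) reached the 40th percentile on SHR arrays alone. Such a probe set passes the filter only through the strain where it is high, so its direction, and the counts and medians that include it, carry no support for a strain difference.

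The spread within SHR control arteries was wide, and 2 arrays set it. SHR control 1 was the highest and SHR control 4 the lowest of the 4 on both X13044 probe sets of Cd74 and both RT1-Da probe sets. Without SHR control 4, the log2 strain differences in control arteries were 4.27 for X13044_at, 4.25 for X13044_g_at, 4.31 for M15562_g_at and 3.44 for M15562_at. Without SHR control 1 they were 3.10, 2.52, 3.05 and 2.37 in the same order. Single WKY control arrays moved some of them as far: X13044_at had 4.47 without WKY control 2, and M15562_g_at had 4.39 without WKY control 1 and 2.83 without WKY control 3. Without SHR collateral 3, the array that stood apart, the differences in collateral arteries were 3.15, 3.24, 2.57 and 1.88. The largest move there by 1 array was that of X13044_at, to 2.60 without WKY collateral 3, the array with the lowest signal.

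Macrophage markers also leaned higher in SHR, and within groups they followed these values on some arrays and not on others. The mean log2 signal over the 9 tested macrophage markers was 10.07 or more on SHR collateral arrays, against 8.92 to 9.65 on WKY collateral arrays, and 9.60 to 11.07 on SHR control arrays, against 9.04 to 9.56 on WKY control arrays. Their summed signal was 20930 to 36028 on SHR collateral arrays, against 7263 to 22071 on WKY collateral arrays, and 9615 to 52197 on SHR control arrays, against 7131 to 9247 on WKY control arrays. SHR control 4 was the lowest and SHR control 1 the highest SHR control array in this list too. WKY collateral 4 had the highest macrophage mean of its group (9.65), with the lowest signal on X13044_g_at (79.8) and the highest on X13044_at (355). The adipocyte list, read from 5 tested genes of fat cells that surround mesenteric arteries, spanned 10.01 to 12.11 on SHR collateral arrays, against 8.78 to 11.03 on WKY collateral arrays, and 9.60 to 12.80 on SHR control arrays, against 10.07 to 11.96 on WKY control arrays, with SHR control 4 again lowest and SHR control 1 highest in its group. Of the macrophage markers, Itgam was near background on 14 of 15 arrays and Csf1r was not tested. The mean log2 signal over the 11 smooth muscle markers was 12.29 to 14.47 on SHR collateral arrays, against 14.17 to 14.61 on WKY collateral arrays, and 13.38 to 14.58 on SHR control arrays, against 14.08 to 14.46 on WKY control arrays. It was lowest on SHR collateral 3, and among SHR control arrays it was lowest on SHR control 1 and highest on SHR control 4, the opposite order to the macrophage list. The strain difference was below 0 for 10 of 11 smooth muscle markers in collateral arteries (median -0.75) and 7 of 11 in control arteries (median -0.17), and none passed. Of 9 tested endothelial markers, 5 were below 0 in each vessel type (median -0.31 in collateral and -0.67 in control arteries). Limma called 1 of the 9 lower in SHR than in WKY control arteries, where 0.0307% of all tested probe sets were called. Of 10 tested fibroblast markers, 8 were above 0 in each vessel type (medians 0.22 and 0.35), and none passed. The part of macrophage, fat, smooth muscle, endothelial or fibroblast content in the levels of Cd74 and the class II chains was not tested.

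**Figure D3:**
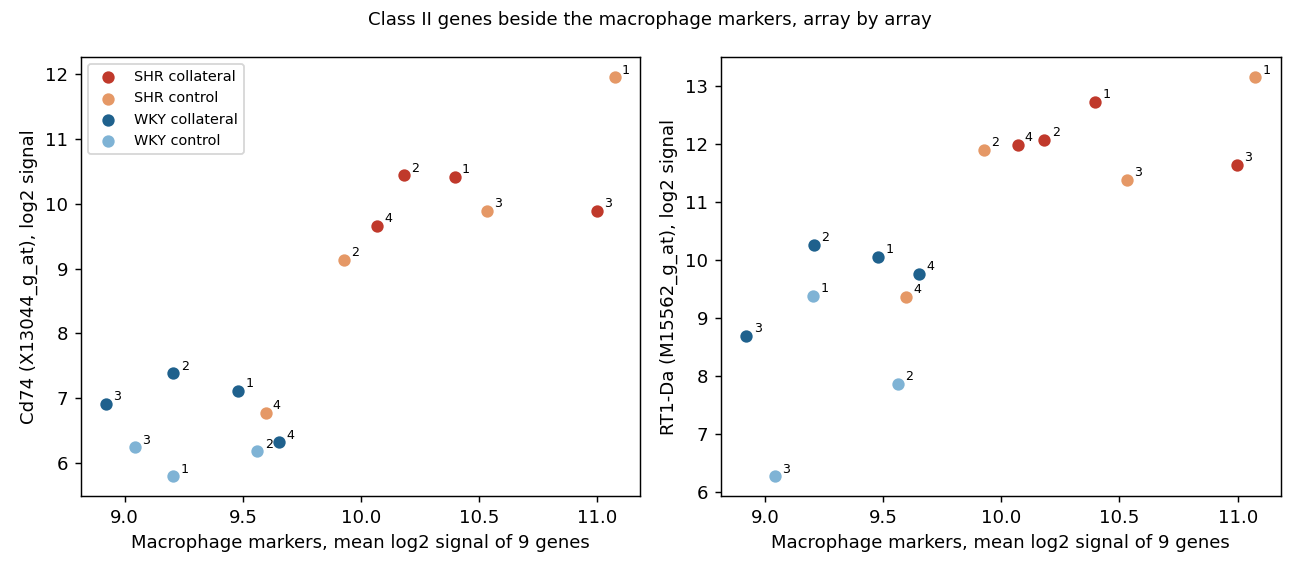
Log2 signal of Cd74 (X13044_g_at) and RT1-Da (M15562_g_at) on the vertical axes against the mean log2 signal of 9 macrophage markers on the horizontal axis, 1 point per array, labelled by replicate number and coloured by group. SHR control 1 lies at the top right, and SHR control 4 lies next to the WKY arrays.

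Among the 9 tested macrophage markers, 9 had a strain difference above 0 in collateral arteries (median 1.07, against 0.07 over all genes) and 8 in control arteries (median 0.76, against 0.01 over all genes). None passed the test. C1qb, a chain of complement C1q that tissue macrophages make, had log2 differences of 2.30 ± 0.63 in collateral arteries (limma, adjusted p = 0.306) and 2.12 ± 0.68 in control arteries (adjusted p = 0.447). Lyz2, lysozyme, had 2.15 ± 0.69 in control arteries (adjusted p = 0.443), and Lgals3, galectin 3, had 1.07 ± 0.37 in collateral arteries with all SHR arrays above all WKY arrays (adjusted p = 0.517). Of the other cell types that carry class II, the 3 tested B cell markers had medians of 0.63 in collateral and -0.17 in control arteries. The 3 tested dendritic cell markers had 0.74 and -0.21. Mean log2 signals on SHR collateral 3, the array that stood apart, were 9.999 for B cell and 10.52 for dendritic cell markers. The other SHR collateral arrays had 7.57 to 8.37 and 7.83 to 8.83 in the same order. Both ranges lay within those of the WKY collateral arrays, 7.53 to 8.47 and 7.41 to 9.02. Of the dendritic markers, Batf3 was near background on 13 of 15 arrays. Mast cell markers, of a cell type that also lies along mesenteric vessels, were above 0 for 5 of 5 tested genes in collateral and 4 of 5 in control arteries, with Cpa3, a granule protease, at 2.51 ± 0.64 in collateral arteries (adjusted p = 0.235).

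No probe set of the 5 genes passed the test of collateral against control arteries in either strain. The choice of genes read the signals of all 4 groups, so the p-values of this comparison are not independent of that choice. In SHR, the log2 changes were 0.63 ± 0.83 for Cd74 X13044_at, 0.66 ± 0.72 for X13044_g_at, 0.65 ± 0.66 for RT1-Da M15562_g_at and 0.71 ± 0.53 for M15562_at (limma, adjusted p = 0.949 for each). The median over the 13 probe sets was 0.49, against 0.06 over all, of which 54.8% were above 0. None of the 13 was apart between the SHR groups, where 0.906% of all were higher and 0.814% lower on every collateral array. These SHR values rest on 2 control arrays: without SHR control 4 the 4 changes were -0.0086, -0.22, -0.042 and 0.17, and without SHR control 1 each was 1.16 or more.

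In WKY, RT1-Da had the largest changes of the 5 genes. M15562_at was higher on every collateral array (268 to 489) than on every control array (110.3 to 122), with a log2 change of 1.74 ± 0.57, and M15562_g_at (415 to 1231, against 77.0 to 666) overlapped and changed by 1.86 ± 0.72. Both had an adjusted p of 1.00 (limma, over 6512 probe sets), and of the 13 tested they were the ones with an unadjusted p under 0.05. Without WKY control 3 the change of M15562_g_at was 1.07 and without WKY control 1 it was 2.63, while M15562_at stayed between 1.62 and 1.91 with any 1 array left out. Cd74 had changes of 0.84 ± 0.90 on X13044_at, 0.86 ± 0.78 on X13044_g_at and -0.98 ± 0.91 on X14254cds_g_at, and the first was 1.68 without WKY control 2. Of the 13 probe sets, 3 (X13044_g_at, M15562_at and U65217_i_at) were higher on every WKY collateral array than on every WKY control array, where 3.61% of all tested probe sets were, and U65217_i_at was near background on all 7 WKY arrays. None was lower on every collateral array, as 3.09% of all were. The median over the 13 was 0.34, against 0.003 over all.

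Over both strains, the mean collateral change was 1.22 ± 0.39 for M15562_at (limma, adjusted p = 0.807) and 1.26 ± 0.49 for M15562_g_at (adjusted p = 0.887). The difference between the strains in the collateral change, SHR minus WKY, was -1.03 ± 0.78 and -1.20 ± 0.98 for these probe sets (adjusted p = 1.00 for both), and its median over the 13 was -0.09. With 1 array left out it ran from -1.57 (without SHR control 4) to -0.50 (without SHR control 1) for M15562_at, and from -1.97 (without WKY control 1) to -0.42 (without WKY control 3) for M15562_g_at. None of the 6512 probe sets passed in any of these 4 vessel comparisons, so the share called was 0%, while the number at an unadjusted p under 0.05 was 245 in SHR, 206 in WKY, 333 for the mean and 124 for the difference. The median SE over all tested probe sets was 0.50 in SHR and 0.54 in WKY, and a p that misses the threshold does not show that the vessel types are alike.

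**Figure D4:**
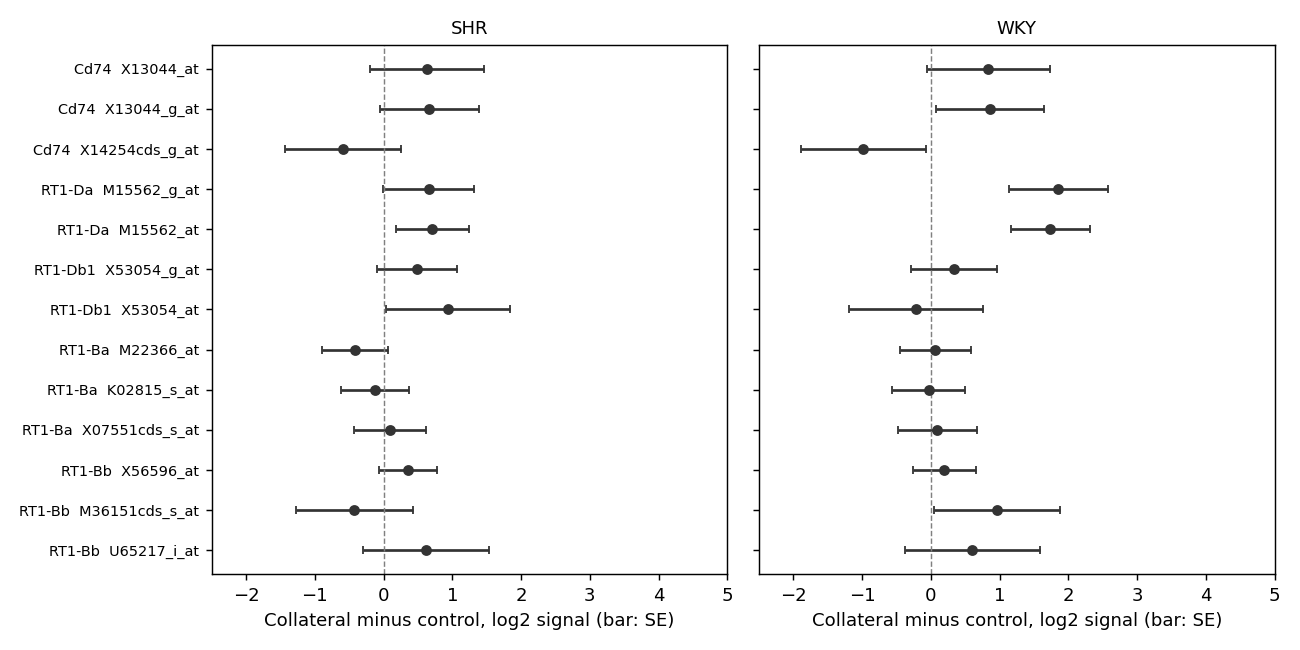
Difference of mean log2 signal, collateral minus control arteries, for the 13 tested probe sets in SHR (left) and WKY (right), with SE as bars. RT1-Da M15562_at and M15562_g_at lie at 1.74 and 1.86 in WKY, and at 0.71 and 0.65 in SHR.

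Within groups, Cd74 and RT1-Da tended to vary together across arrays, less so by rank. The correlation of deviations from the own group mean was 0.42 to 0.89 for the 6 pairs among the X13044 and M15562 probe sets, over the 14 arrays without SHR collateral 3, and 0.41 to 0.89 with it. The highest was between Cd74 X13044_g_at and RT1-Da M15562_at. By Spearman correlation over the 14 arrays the 6 pairs had 0.24 to 0.51, with 0.51 for that pair. Over all 78 pairs of the 13 probe sets the range was -0.77 to 0.89 with a median of 0.24, and even the 11 pairs of probe sets of the same gene spanned -0.30 to 0.82. All probe sets of an array share its RNA and its labelling, and the Cd74 and RT1-Da deviations are led by SHR control 1 and SHR control 4.

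**Figure D5:**
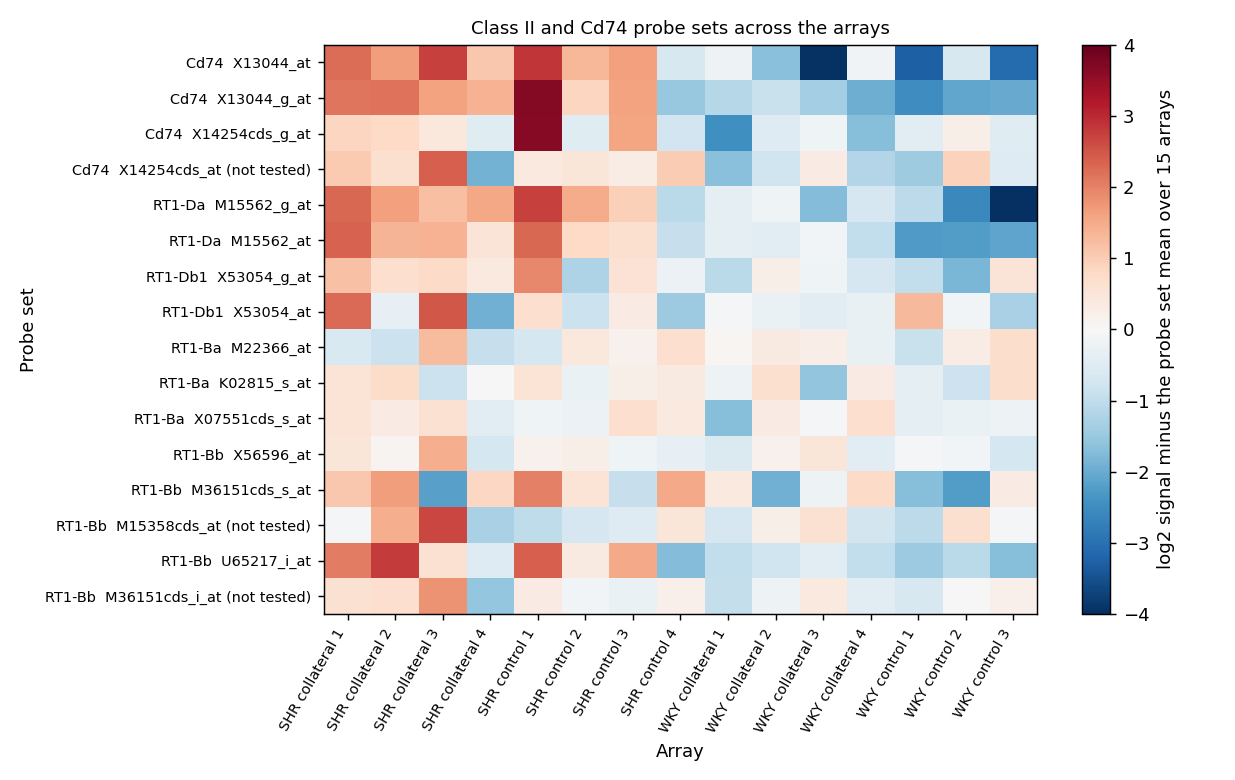
Log2 signal minus the probe set's mean over 15 arrays, for the 16 probe sets (rows) on each array (columns, by group). The rows of Cd74 X13044 and RT1-Da are above their mean on the SHR arrays other than SHR control 4 and mostly below it on WKY arrays, and the RT1-Ba rows show no split by strain.

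The probe sets most like the mean of the 13 in these deviations, among 5261 others with a gene symbol, were those of Rps9 (r = 0.89 over 14 arrays, 0.60 over 15), Rack1 (0.89, 0.63), Tmbim6 (0.87, 0.81), Sh2b2 (0.86, 0.65), Ralb (0.86, 0.85), Ctsd (0.86, 0.86), Adam7 (0.85, 0.64) and RT1-DMb (0.84, 0.82). RT1-DMb is the beta chain of the class II editor RT1-DM, and Ctsd is a lysosomal protease. The mean deviation of the 13 was 1.15 on SHR control 1, -0.98 on SHR control 4 and -0.74 on SHR collateral 4. It was -0.17 to 0.19 on the WKY arrays, so SHR arrays lead these r values and those by list. By list, the median r over 14 arrays was 0.59 for macrophage markers (8 of 9 above 0), 0.42 for adipocyte markers (4 of 5), 0.38 for dendritic cell markers (3 of 3), 0.38 for class II loading and assembly (9 of 11), 0.34 for MHC class I and peptide supply (15 of 16), and -0.69 for smooth muscle markers (0 of 11 above 0), against 0.03 over all probe sets. It was 0.34 for mast cell markers (5 of 5), 0.27 for endothelial markers (8 of 9) and -0.36 for B cell markers (1 of 3). The other lists had medians of 0.11 to 0.22.

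The genes of class II loading and assembly include the editor RT1-DM, the lysosomal proteases that trim Cd74 and cut antigen, and the minor class II chains. Of the 18 listed genes, 11 were tested and none passed in any comparison. Their strain difference was above 0 for 9 of 11 in collateral arteries (median 0.35) and 8 of 11 in control arteries (median 0.27). RT1-DMb had signals of 682 to 1968 on SHR collateral arrays, against 418 to 795 on WKY collateral arrays, and 190.0 to 2693 on SHR control arrays, against 124 to 298 on WKY control arrays. Its log2 difference was 1.14 ± 0.59 in collateral arteries (limma, adjusted p = 0.657) and 2.16 ± 0.64 in control arteries (adjusted p = 0.412), so the groups leaned the way of RT1-Da but overlapped. RT1-DMa, its alpha chain, had 0.87 ± 0.42 in control arteries (adjusted p = 0.778). Ctss, cathepsin S, which trims the invariant chain, had 1.02 ± 0.52 in collateral and 0.82 ± 0.56 in control arteries (adjusted p = 0.647 and 0.921), and Ctsb had 0.78 ± 0.31 and 0.74 ± 0.33 (adjusted p = 0.579 and 0.729). In WKY, RT1-DMb was higher on every collateral array than on every control array, with a log2 change of 1.59 ± 0.64 (adjusted p = 1.00), and in SHR it changed by 0.57 ± 0.59 (adjusted p = 0.949).

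The factors that act on class II promoters did not lean the way of Cd74 and RT1-Da. Of 6 tested genes, 0 had a strain difference above 0 in collateral arteries (median -0.23) and 3 in control arteries (median -0.0037), and none passed. Rfx5, a subunit of the factor that binds the X box, had -0.55 ± 0.33 in collateral and -0.35 ± 0.36 in control arteries (limma, adjusted p = 0.690 and 0.999). Irf8, a factor of myeloid cells, had -0.32 ± 0.41 and -1.05 ± 0.44 (adjusted p = 0.830 and 0.692). Nfyb, a subunit of the Y box factor, had -0.33 ± 0.49 in collateral and 0.07 ± 0.53 in control arteries, both within 1 SE of 0. Ciita was not analysed here.

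Of the interferon gamma list, 10 genes were tested, 4 had a strain difference above 0 in collateral arteries (median -0.18) and 2 in control arteries (median -0.20). Irf1, a transcription factor that interferon gamma induces, was lower on every SHR control array than on every WKY control array, with a log2 difference of -2.03 ± 0.43 (limma, adjusted p = 0.114), and had -1.29 ± 0.40 in collateral arteries (adjusted p = 0.390). Mx1, an interferon-induced antiviral protein, had -0.86 ± 0.36 in collateral arteries (adjusted p = 0.585). Jak1, a kinase of the interferon receptors, had 1.34 ± 0.75 in collateral and 1.23 ± 0.81 in control arteries (adjusted p = 0.678 and 0.915). None passed. The values of Irf1 and Mx1 were opposite in sign to those of Cd74 and RT1-Da, and those of Jak1 had the same sign. Jak1 was near background on 5 of 15 arrays and reached the 40th percentile on 3, while Irf1 and Mx1 reached it on all 15. A part of interferon gamma in the levels of Cd74 and RT1-Da was not tested.

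MHC class I molecules, which present peptides made in the cytosol, and the genes that supply them showed no common direction. Of 16 tested, 9 were above 0 in each vessel type, with medians of 0.05 in collateral and 0.04 in control arteries, and none passed. RT1-A3, a class I heavy chain, had 3.24 ± 0.58 in collateral arteries (limma, adjusted p = 0.0783) and 1.83 ± 0.63 in control arteries (adjusted p = 0.527), with all SHR arrays above all WKY arrays in both. Its signal was near background on 3 of 4 WKY collateral arrays (range 19.8 to 112) and on 1 of 3 WKY control arrays, so the size of the difference is uncertain. Psmb8, an immunoproteasome subunit encoded within the class II region, had 1.44 ± 0.40 in collateral and 1.03 ± 0.43 in control arteries (adjusted p = 0.306 and 0.683). B2m, the light chain of class I, had -0.59 ± 0.27 in collateral arteries (adjusted p = 0.635). The caution on strain sequence differences stated for the RT1 genes holds for RT1-A3 too.

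Of the 7 tested ligands and partners of Cd74, 3 had a strain difference above 0 in collateral arteries and 4 in control arteries, and none passed. Mif, the cytokine that binds Cd74, had 0.34 ± 0.23 in collateral arteries and 0.57 ± 0.25 in control arteries (limma, adjusted p = 0.728 for control arteries). In WKY collateral against control arteries, Cd44, the signalling partner of Cd74, changed by 1.59 ± 0.75 (adjusted p = 1.00). On the side of the T cell, 6 of 13 genes on the array were tested, and Cd4, Cd3d, Cd3g, Cd28, Cd40lg, Cd2 and Cd5 were not. Cd40lg was near background on all 15 arrays, and no gene of this list was at or above the 40th percentile on every array. Of the 6, 5 had a strain difference above 0 in collateral and 2 in control arteries, with Lck, a T cell kinase, at 0.79 ± 0.44 in collateral arteries (adjusted p = 0.671). The mean log2 signal over the 6 was 9.41 on SHR collateral 3, the array that stood apart. It was 7.39 to 8.21 on the other SHR collateral arrays and 7.56 to 8.17 on WKY collateral arrays.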

How the data were processed

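Total RNA of 15 samples was hybridised to Affymetrix rat arrays. The signal values were deposited by the authors, made with GCOS and MAS5 per the submitters' processing notes, with versions not given in the sources used here. Such scaling assumes alike total RNA per array, and it lifts dim probe sets on a poor array. Of 8799 probe sets, 59 array controls were left out. Values under 1 (12 in all) were raised to 1 before log2 was taken. Tests covered the 6512 probe sets that reached the 40th percentile of 3 or more arrays. Symbols are those of the platform annotation (7006 probe sets with 1 symbol, 308 with several and 1426 with none, the last 2 kinds left unnamed), and 6985 were matched to RefSeq's gene table with 0 differing.

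Tests used limma 3.58.1 (R 4.3.3), fitting the means of the 4 groups given by the titles, a variance trend, 11 residual and 7.19 prior degrees of freedom, two-sided, with Benjamini-Hochberg adjustment over all tested probe sets at 0.05. The fit was tested on simulated data. Precision is limited by the number of arrays.

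The genes and the lists were chosen with earlier results of these data known. Named were all probe sets of the 5 genes, up to 4 genes with the smallest p per list in each strain comparison and up to 2 in each vessel comparison, of which the text gives part, and the 8 probe sets most alike. A list takes 1 probe set per gene, that with the highest mean. The statements on which list markers were near background were added after the values were seen. The labels do not say whether replicate numbers mark pairs, and the main fit did not pair by them. Same-numbered arrays had deviations correlating between -0.07 and 0.31, which does not settle whether they were pairs.

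Alternatives were array weights, no variance trend, a filter at the 60th percentile or none, 64 added to signals, quantile normalization, equal array medians, only the groups compared, the replicate number as fixed or random block, and each array left out.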

Additional observations from a re-analysis of the deposited data

Results flagged for a closer look

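RT1-Ba, probe set M22366_at, had a signal of 1599 on SHR collateral 3, against 346 to 429.6 on the other 3 SHR collateral arrays, a gap larger than Dixon's 95% limit for 4 arrays. It is 1 of 48 sets of array values examined this way, and chance marks about 5% of them. SHR collateral 3 is also the array that stood apart from the rest, with a 20th percentile of 171.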

How the results depend on the processing

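No alternative changed the sign of a called value. The strain differences of Cd74 (X13044_at, X13044_g_at) and RT1-Da (M15562_at, M15562_g_at) stayed above 0 under all 25 alternatives in both vessel types. The genes were chosen on these same signals, and X13044_g_at passed the filter only through SHR. The stable sign is therefore a description and carries no support for a strain difference. For SHR against WKY in control arteries, 2 probe sets were called, against 0 with no filter, 0 with a 60th percentile filter, 1 with no variance trend, 14 with array weights, 4 with the replicate number as a block and 7 with only the groups compared. Leaving out 1 array gave 0 to 6, the highest without SHR control 4. Of the 13 probe sets of the 5 genes, 0 were called there, against 2 with array weights, 2 with the replicate block (both RT1-Da each time) and 0 to 3 with 1 array left out (3 without SHR control 4). Their median of 1.23 was 1.98 with the 60th percentile filter, which kept 9 of them, and 0.57 (without SHR control 1) to 1.75 (without SHR control 4) with 1 array left out. For SHR against WKY in collateral arteries, 0 probe sets were called, against 26 with array weights, 6 with the replicate block, 2 with only the groups compared and 0 to 7 with 1 array left out (7 without SHR collateral 4). Of the 13, 0 were called, against 2 with array weights, 1 with only the groups compared and 0 in every fit with 1 array left out. As the 13 were chosen on these same signals, their counts of calls in both strain comparisons are no test of them. Their median of 1.17 spanned 0.95 to 1.73 with 1 array left out. For collateral against control arteries, 0 were called under every alternative run. The median of the 13 in SHR, 0.49, spanned -0.042 (without SHR control 4) to 1.04 (without SHR control 1), that in WKY 0.12 to 0.55, the mean of both strains 0.23 to 0.54 and the strain difference in the change -0.31 to 0.22. With equal array medians the median of all probe sets in the collateral strain comparison was -0.12 in place of 0.12. The causes were not tested. Using only the groups compared gives the same fit for the mean and the difference, so it was not run for them. The replicate block changed no other count of calls. The low signal of WKY arrays limits the size of the Cd74 difference.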
